A study of Mus musculus with 17 samples.

Results

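Synaptic vesicle release genes code for the machinery by which a nerve terminal docks, primes and fuses vesicles filled with transmitter. The set held 40 of the 21755 protein-coding genes of the mouse. They were chosen by name for their roles at the release site and not by a measured value, but earlier results of these data were known. Open chromatin regions were assigned to a gene where they overlapped its GENCODE gene body in mm10, extended by 2 kb on each side. This gave 1053 of the 147420 regions compared genome-wide. Of these, 88 lay within 1 kb of a transcript start of the gene and were called promoter regions, and 965 were called intragenic, a class that took in introns, exons and the 2 kb flanks.

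An action potential opens calcium channels at the active zone, and the calcium sensors of the synaptotagmin and Doc2 families then drive fusion. Fusion itself is carried out by SNARE proteins on the vesicle and on the plasma membrane, which zip together after Munc13 proteins (Unc13 genes) have primed the vesicle and while complexins hold it ready. Large scaffold proteins, namely RIM, Bassoon, Piccolo and ELKS, keep vesicles beside the calcium channels, and an ATPase with its adaptor takes the spent SNARE complexes apart. In the nucleus accumbens, a reward area of the ventral striatum, most neurons are medium spiny neurons, which release GABA through this machinery.

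The data were ATAC-seq peaks of NeuN-positive (neuronal) nuclei, sorted from the bilateral nucleus accumbens of C57BL/6 mice (C57BL/6J in the study's methods) aged 52 to 54 days. The 6 groups were females in diestrus (low estrogen), females in proestrus (high estrogen) and males, each without cocaine or 1 hour after 10 mg/kg cocaine given intraperitoneally. No vehicle injection was named for the controls, so that cocaine and the injection cannot be told apart. Each library pooled 3 animals, and each group had 3 libraries except male cocaine, which had 2. Diestrus cocaine library 2 had a blank stage label and was placed by its title, and the proestrus cocaine libraries were numbered 1, 2 and 4. P-values therefore measure the spread between such pools.

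The 17 libraries held 75458 to 157005 peaks on chromosomes 1 to 19 and X. Both male cocaine libraries had the fewest peaks (87707 and 75458), although their background pileups of 8.15 and 7.60 lay within the range of all libraries (6.26 to 9.55). Diestrus cocaine library 1 had the most peaks, and diestrus cocaine libraries 2 and 3 had 111834 and 99789. These differences moved with the counts of calls below, and their part in them was not tested. At the 5′ ends of marker genes, all 4 neuronal markers and 7 of 8 medium spiny neuron markers were called in every library, the exception being Pdyn with 16. Among markers of other cells, Mbp and Slc17a7 were called in all 17 libraries and Gfap in 16, whereas 3 of 5 astrocyte, 3 of 4 microglial, 2 of 2 oligodendrocyte precursor and 3 of 3 endothelial markers were called in none. The sex labels were checked at 4 Y-linked genes and at Xist, the X-linked gene of X chromosome inactivation. Eif2s3y, Uty and Ddx3y each held a peak in all 5 male libraries and in 0 of 12 female ones. Kdm5d held one in 1 of 3 male control, 0 of 2 male cocaine and 0 of 12 female libraries. Peaks at Xist numbered 2 to 5 in female libraries, 1 in each male control library and 0 in both male cocaine libraries. Peaks on Y numbered 6 to 12 in female libraries, 10 to 13 in male controls and 25 and 26 after cocaine in males, but those of the females all lay beyond 90 Mb, at the far end of Y, and outside that end there were 0 in females, 5 to 8 in male controls and 15 to 16 in the male cocaine libraries. The male control and male cocaine libraries thus differed in Y peaks too, in the opposite direction to their totals, and at Xist. The part of these differences in the results for males was not tested.

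Sequences are shown for 8 intragenic regions on which the results turn, each with 50 bases on either side of a summit, read from the plus strand of mm10. They are 3 regions that rose after cocaine, in Unc13c, Rab3c and Syt1, then 2 that fell, in Bsn and Rab3c, then 2 that were newly called after cocaine in proestrus, in Rims1 and Pclo, and a region of Sv2b that was no longer called. Capitals mark an AP-1 motif, the binding sequence of Fos and Jun proteins, and only the Bsn stretch holds one. The Rims1 region and the Rab3c region that rose hold one farther from the summit, outside the bases shown. The Rab3c stretch that fell is built of repeats, with 86.1% of its bases soft-masked.
Unc13c, rose, chr9:73935241-73935341: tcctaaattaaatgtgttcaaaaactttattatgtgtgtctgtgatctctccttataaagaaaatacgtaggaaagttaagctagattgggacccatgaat
Rab3c, rose, chr13:110218624-110218724: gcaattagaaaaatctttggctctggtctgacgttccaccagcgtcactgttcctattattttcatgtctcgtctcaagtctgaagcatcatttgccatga
Syt1, rose, chr10:108929833-108929933: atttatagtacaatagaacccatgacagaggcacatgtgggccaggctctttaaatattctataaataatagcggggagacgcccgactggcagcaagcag
Bsn, fell, chr9:108128376-108128476: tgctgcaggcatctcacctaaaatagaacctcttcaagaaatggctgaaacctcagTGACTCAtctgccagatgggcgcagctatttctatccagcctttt
Rab3c, fell, chr13:110109594-110109694: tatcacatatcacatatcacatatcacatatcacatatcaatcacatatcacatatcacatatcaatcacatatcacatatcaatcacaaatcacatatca
Rims1, gained, chr1:22709491-22709591: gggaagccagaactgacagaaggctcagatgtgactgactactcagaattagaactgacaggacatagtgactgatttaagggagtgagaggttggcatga
Pclo, gained, chr5:14797624-14797724: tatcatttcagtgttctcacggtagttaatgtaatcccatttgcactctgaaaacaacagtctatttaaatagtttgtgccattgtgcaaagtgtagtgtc
Sv2b, lost, chr7:75194823-75194923: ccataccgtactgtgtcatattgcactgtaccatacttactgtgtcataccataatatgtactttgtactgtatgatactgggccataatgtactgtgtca

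AP-1 motifs (TGAGTCA or TGACTCA, which are each other's reverse complement) were searched on both strands within 100 bp of the strongest summit. They occurred in 93 of the 1053 regions of the vesicle release genes (8.83%) and in 10.1% of all regions. In promoter regions the count was 9 of 88 (10.2%), beside 5.04% of all promoter regions. The other motifs searched were rare in the set. The cAMP response element (TGACGTCA) was found in 1 region and in 0.498% of all regions, the left part of the RE1 element bound by the silencer REST (TTCAGCACC) in 3 regions and in 0.252% of all, and the Egr site (GCGTGGGCG) in 1 region and in 0.159% of all.

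Promoters of the vesicle release genes were open in nearly every library. In 37 of the 40 genes a promoter region was called in all 17 libraries, whereas over all protein-coding genes this share was 56.8%. The fold enrichment of a peak is the height of its summit over the library's background, and the median over libraries of the highest value in the promoter region ranged from 3.29 to 45.5 between genes. Where a gene had several promoter regions, its main one was that called in the most libraries and, among these, of highest mean fold. In Syt2, Rims3, Sv2a and Cplx3 it lay at an internal start, over 1 kb from the gene's 5′ end. The plot of promoter enrichment shows these values in every library.

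**Figure D1:**
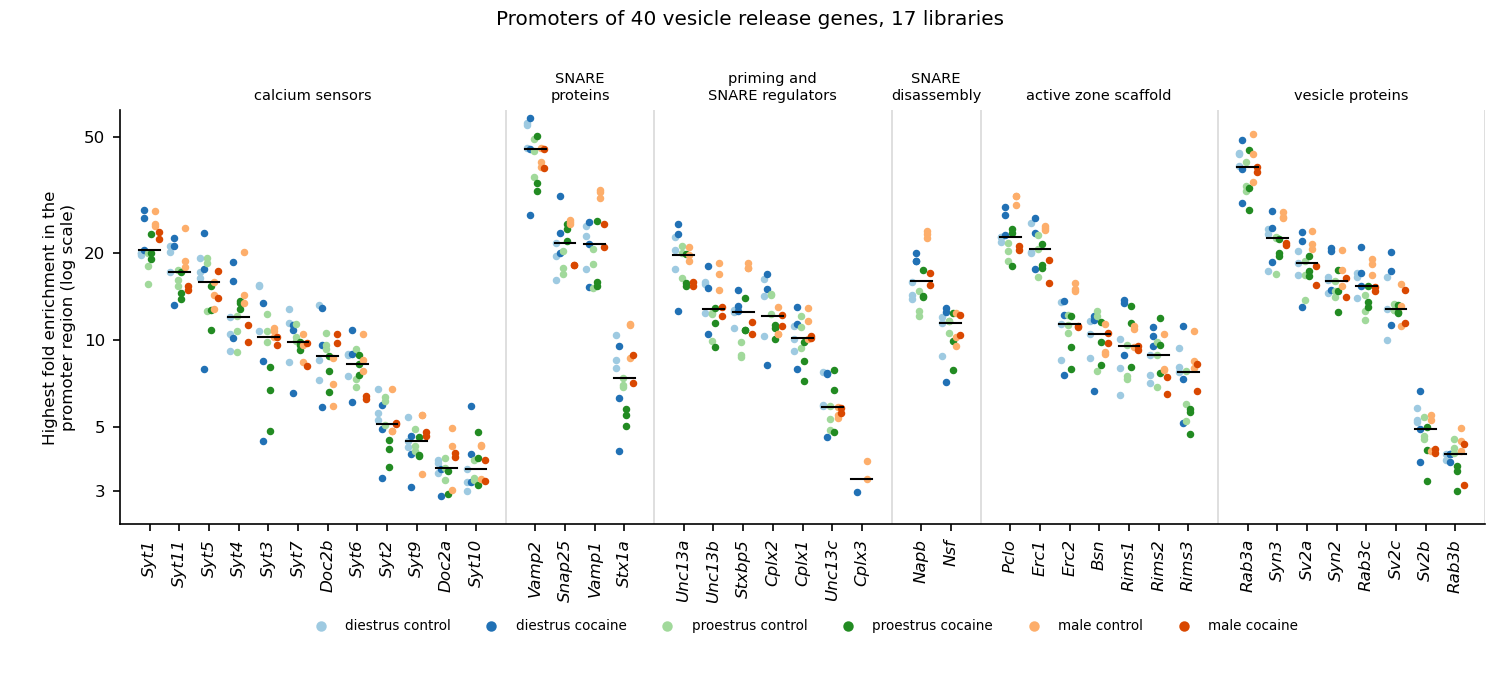
Highest fold enrichment in the main promoter region of each of the 40 genes (vertical axis, log scale), grouped by role and ordered by median. Each point is 1 library, coloured by group, and the bar is the median over the libraries with a call. The regions of Syt2, Rims3, Sv2a and Cplx3 lie at internal starts. Vamp2 and Rab3a stand at the top with medians of 45.5 and 39.4, and Cplx3, called in 3 libraries, is lowest at 3.29.

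The synaptotagmin and Doc2 genes were grouped by family under the label calcium sensors, which need not hold for each member. Among them Syt1, the sensor of fast synchronous release, had the strongest promoter, with a median fold of 20.4 and values from 15.6 to 28.0. Syt11 (17.2), Syt5 (15.8), Syt4 (12) and Syt3 (10.2) followed, then Syt7 (9.84), the sensor linked to asynchronous release, Doc2b (8.81) and Syt6 (8.21). Syt2, the fast sensor of many hindbrain synapses, reached 5.11 at an internal start, Syt9 4.47 and Syt10 3.57. Doc2a, a high-affinity sensor, had a promoter region (chr7:126847316-126849681) that was called in 15 libraries, at folds of 2.89 to 4.97, and was missing in diestrus cocaine library 3 and proestrus cocaine library 1.

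The SNARE genes had promoter folds of 45.5 for Vamp2, 21.5 for Snap25, 21.4 for Vamp1 and 7.39 for Stx1a. The region over Vamp2, the main vesicle SNARE of forebrain synapses, spanned 30499 bp and also held the start of Per1, so that its highest summit need not belong to Vamp2. Rab3a, a small GTPase of the vesicle surface, lay likewise in a region of 54161 bp with other genes. Of the priming and regulatory genes, Unc13a, which codes for Munc13-1, had a median of 19.6, Unc13b 12.8, the SNARE inhibitor tomosyn (Stxbp5) 12.5, Cplx2 12.1, Cplx1 10.1 and Unc13c 5.86. Cplx3, a complexin best known from retinal ribbon synapses, had a single region (chr9:57604811-57605252), called in diestrus cocaine library 1 (2.97) and male control libraries 1 (3.82) and 3 (3.29) only.

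The genes of SNARE disassembly, Napb and Nsf, had medians of 15.9 and 11.4. Among active zone genes the order ran from Pclo (22.7) and Erc1 (20.6) through Erc2 (11.3), Bsn (10.5), Rims1 (9.51) and Rims2 (8.82) to Rims3 (7.75, at an internal start). Among vesicle protein genes it ran from Rab3a (39.4) and Syn3 (22.4) through Sv2a (18.4), Syn2 (16), Rab3c (15.3) and Sv2c (12.8) to Sv2b (4.91) and Rab3b (4.03). The Sv2a value belongs to an internal start, in a region (chr3:96192542-96199702) that reaches past the 3′ end of the gene. The Rab3b promoter (chr4:108878817-108879434) was called in 16 libraries at 3.00 to 4.94 and was missing in diestrus control library 1. Promoter regions were wide, with a median of 2485.5 bp against 1726.5 bp for all promoter regions.

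Regions were many, and intragenic ones were less often shared between libraries than promoters. Per 100 kb of gene body and flanks, promoter regions included, the median was 20 regions in the vesicle release genes, each of which held at least 1. It was 11.6 over the protein-coding genes with a region and 7.99 over all of them, and among genes longer than 100 kb it was 14.5 (17 genes of the set) and 7.62 (2489 genes). Erc2, which codes for the ELKS protein CAST, held 173 regions, Syt1 140, Rims2 90, Rims1 76, Pclo 70 and Rab3c 57. Per 100 kb, Syt1 had 27.1, Rab3c 24.7, Erc2 20.1, Pclo 19.9, Rims2 18.4 and Rims1 14.5, whereas Unc13c had 4.25 and Syn3 8.49. Vamp2, Rab3a and Cplx3 held 1 region each. The share of intragenic regions called in all 17 libraries was 17.4% (168 of 965), next to 17.5% for intragenic regions of all protein-coding genes, and that of promoter regions was 63.6% (56 of 88), next to 61.8%. By role, the share over promoter and intragenic regions together was lowest in the active zone scaffold genes (14% of 465 regions) and reached 29.0% of 238 in the synaptotagmin and Doc2 genes. The GC content of the regions had a median of 40.9%, below the 44.4% of all regions.

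Fewer regions of the set were called in the male cocaine libraries than in any other library. The counts were 668, 678 and 725 in diestrus controls and 730, 520 and 496 after cocaine in diestrus. They were 596, 580 and 637 in proestrus controls and 672, 565 and 669 after cocaine. In males they were 654, 619 and 657 in controls and 399 and 332 after cocaine. In males the groups did not overlap, and in both female stages they did. The share of promoter regions called in males was 84.9% ± 3.65 (SD, n = 3) in controls and 70.5% ± 3.18 (SD, n = 2) after cocaine. For intragenic regions the corresponding means were 58.9% and 31.5%, and for all regions genome-wide 68.3% and 39.3%. In proestrus, promoter regions were called in 84.1% ± 3.00 (SD, n = 3) of cases in controls and 77.7% ± 0.635 (SD, n = 3) after cocaine. Intragenic regions went the other way, at 54.9% and 58.8%, as did all regions genome-wide, at 53.2% and 56.9%. In diestrus, promoter regions were called in 84.9% ± 1.33 (SD, n = 3) of cases in controls and 77.7% ± 7.59 (SD, n = 3) after cocaine. Intragenic regions there had 63.8% and 53.3%, and all regions genome-wide 60.5% and 54.9%.

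**Figure D2:**
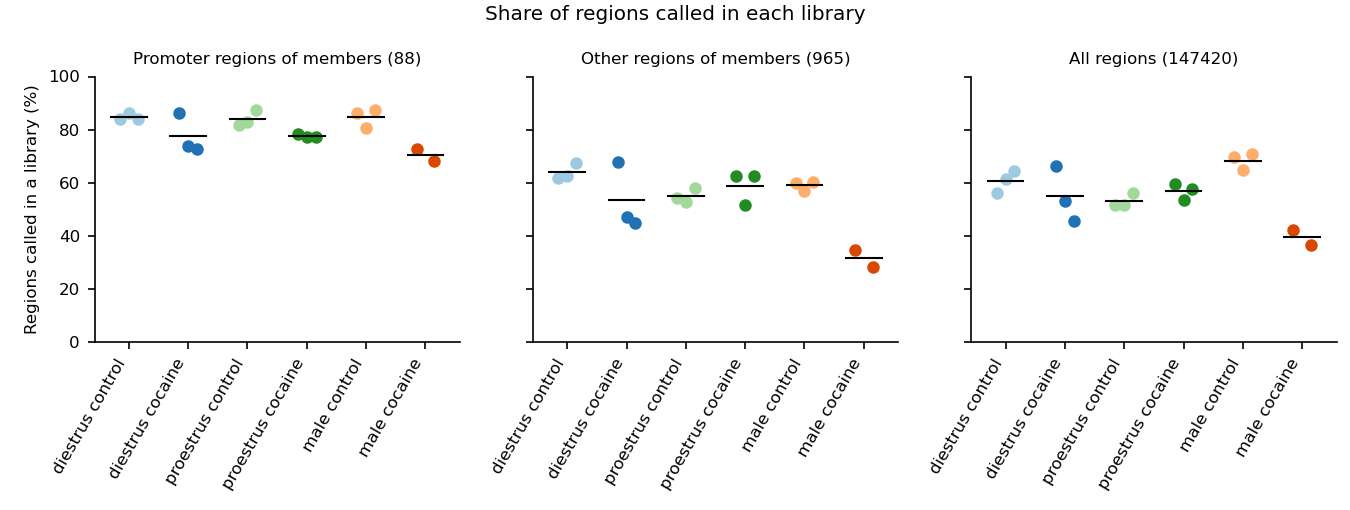
Share of the 88 promoter regions, the 965 intragenic regions and all 147420 regions that each library called (vertical axis, %). Points are libraries and bars are group means. Both male cocaine libraries lie lowest in each panel, at 28.2% and 34.7% of intragenic regions, and diestrus cocaine library 1 (67.8%) stands apart from libraries 2 and 3 of its group (47.2% and 44.8%).

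To ask which regions appeared or disappeared after cocaine by sex and stage, gained regions were those that all cocaine libraries of a group called and none of its controls did, and lost regions were the reverse. Single regions carry no p-value here, because 3 libraries against 3 cannot give an exact two-sided p below 0.1. In diestrus, 2 regions were gained (1.16% of all regions genome-wide were) and 18 were lost (1.26%). In proestrus, 20 were gained (2.45%) and 19 lost (1.64%). In males, 9 were gained (1.66%) and 136 lost (16.8%). Of the 1053 regions, these counts are 0.190% and 1.71% in diestrus and 1.90% and 1.80% in proestrus. Without diestrus cocaine library 1, 87 regions were lost in diestrus (7.24% genome-wide), and without proestrus cocaine library 2, 68 were gained in proestrus (6.32%). When the same number of strongest peaks was taken from each library, which kept 574 regions of the set and 91814 genome-wide, 37 were lost in males (9.52%), and 8 were gained (2.42%) and 8 lost (1.31%) in proestrus.

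Gained and lost regions were intragenic with the exception of 7 promoter regions lost in males, all at internal starts, in Syt11, Unc13b, Rab3b, Sv2a, Sv2c, Erc1 and Erc2. These were 7.95% of the 88 promoter regions, next to 6.77% of all 20620, and in diestrus and proestrus 0.533% to 1.85% of all promoter regions were gained or lost. The folds of regions gained in proestrus ranged from 2.20 to 3.61 with a median of 2.80, and those of regions lost in males from 2.41 to 10.6 with a median of 3.44, while all calls of the set had a median of 3.35 and a maximum of 58.5. AP-1 motifs lay in 11 of the 198 regions gained or lost in any comparison (5.56%), next to 8.83% of the set and 10.1% of all regions. Most of the 198 were among the 136 lost in males. The share among regions gained or lost genome-wide, and among gained regions alone, was not counted.

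The active zone scaffold genes held 15 of the 20 regions gained in proestrus and 13 of the 18 lost in diestrus, having 465 of the 1053 regions. Rims1, which codes for the RIM protein that tethers calcium channels and vesicles, gained 7 in proestrus, the gene of Piccolo (Pclo) 5 and Rims2 3. The other 5 lay 1 each in Syt10, Stxbp5, Snap25, Rab3c and Syn3. Rims2 lost 6 regions in diestrus, Erc2 3, Bsn and Sv2b 2 each, and Syt2, Syt7, Rims1, Syn2 and Pclo 1 each. Lost regions in proestrus were in Erc2 (5), Syt3 (3), Syt2 (2) and Rab3b (2), with 1 each in Syt1, Unc13a, Unc13b, Rab3c, Sv2b, Syn2 and Bsn. Single regions were gained in diestrus in Syt1 (chr10:108572512-108573330) and in Syn3 (chr10:86477465-86478094), the gene of the vesicle-binding protein synapsin III. In males, Rims1 gained 5, and the most were lost in Erc2 (27), Syt1 (21), Rims1 (12) and, with 9 each, Rab3c and Syn3.

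Rims1 had 45, 41 and 40 of its 76 regions called in diestrus controls and 38, 38 and 29 after cocaine. In proestrus it had 29, 24 and 23 in controls and 55, 40 and 51 after cocaine, so that the stages went in opposite directions, each without overlap. In males it had 38, 48 and 46 in controls and 32 and 23 after cocaine. Pclo had 27, 22 and 25 of 70 regions called in proestrus controls and 64, 33 and 59 after cocaine, whereas its counts in diestrus overlapped (31, 28 and 37 against 34, 26 and 35). Rims2 had 64, 61 and 67 of 90 in diestrus controls and 45, 30 and 39 after cocaine, and its counts in proestrus overlapped (38, 41 and 48 against 55, 39 and 66). The difference of these changes between the stages was not tested.

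Other genes went down in proestrus. Syt3 had 5, 5 and 6 of its 7 regions called in proestrus controls and 1 in each library after cocaine, the 1 being its promoter. Bsn, the gene of Bassoon, had 23, 19 and 21 of 25 in proestrus controls and 11, 13 and 9 after cocaine. Erc2 had 92, 96 and 102 of 173 in controls and 89, 78 and 86 after cocaine. In males, Syt1 had a mean of 105 of 140, with at most 107, in controls and 64 and 52 after cocaine, and Syn3 33, 28 and 32 of 38 in controls and 17 and 14 after cocaine. Among the 12 female libraries, Syn3 had 16 to 24 regions called, below each male control library. How many genes genome-wide were separated in this way was not counted. Male control libraries called 64.6% to 70.7% of all regions genome-wide, and female libraries 45.6% to 66.1%.

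**Figure D3:**
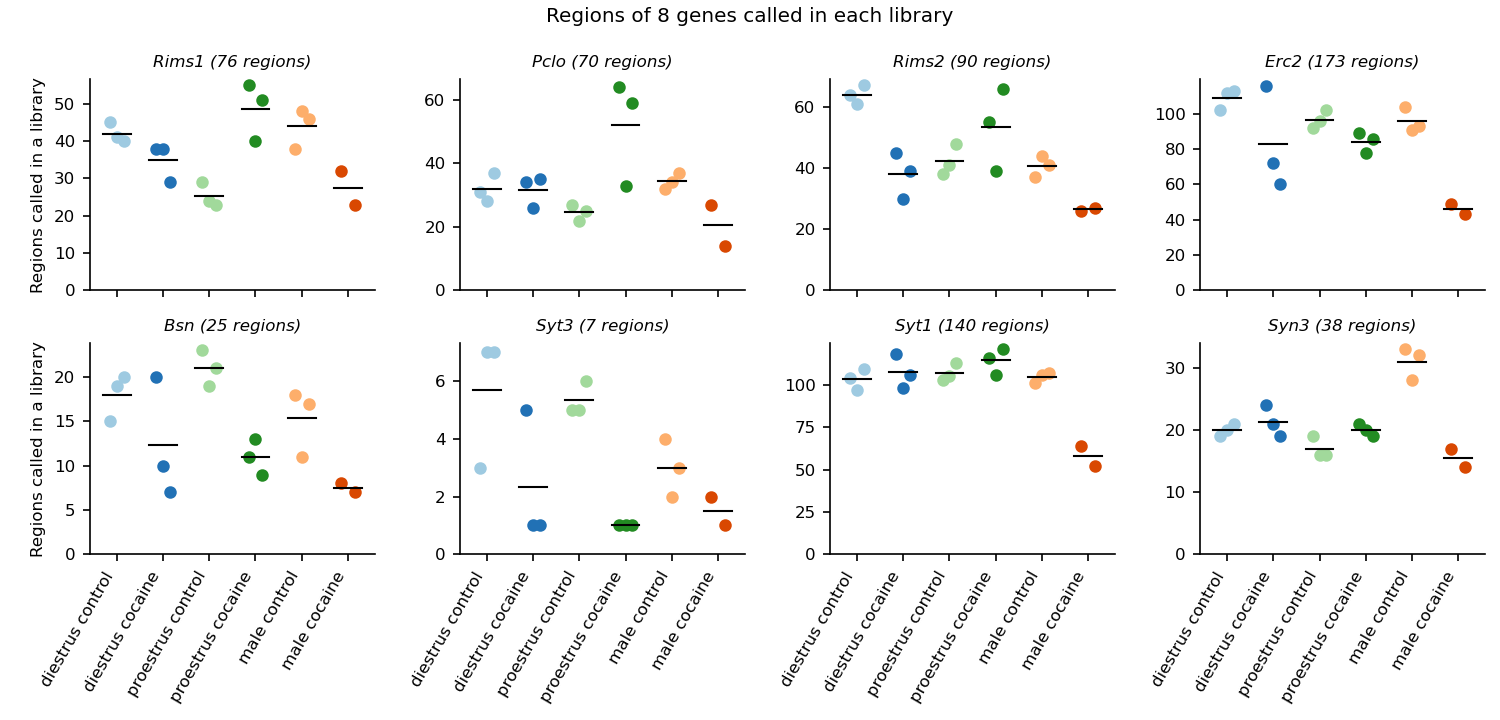
Number of regions of 8 genes called in each library (vertical axis, from 0), with the number of regions of the gene in the panel title. Points are libraries and bars are group means. Rims1 and Pclo had more regions in every proestrus cocaine library than in any proestrus control library, Bsn and Syt3 had fewer, and male cocaine libraries lie low for Erc2, Syt1 and Syn3.

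Such gene-wise separations were frequent genome-wide. Of the 30 genes of the set with at least 5 regions, 0 had more regions called in every diestrus cocaine library than in any control library (5.24% of 5744 genes did) and 3 had fewer (5.66%), namely Rims1, Rims2 and Syt9. In proestrus, 3 had more (15.5%), namely Pclo, Rims1 and Stxbp5, and 6 had fewer (17.4%), namely Bsn, Erc2, Stx1a, Syt3, Syt7 and Unc13a. In males, 0 had more (1.10%) and 24 had fewer (62.9%). This count was chosen after the values had been seen.

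A few regions stood out by their pattern. A Sv2b intron region (chr7:75193968-75195175) was lost in both female stages, the only such region of the set, while 0 were gained in both. Sv2b codes for a glycoprotein of the vesicle membrane, and the region had folds of 2.58, 3.24 and 3.53 in diestrus controls, 2.64, 2.55 and 3.32 in proestrus controls and 2.42 in male control library 3. An exonic Rims1 region (chr1:22478829-22479719) was gained in both proestrus and males. Rims1 introns also held regions at chr1:22690607-22691674 and chr1:22709269-22710310 that were gained in proestrus and lost in males. A Pclo intron region (chr5:14555395-14556272) was lost in diestrus and in males and gained in proestrus. Its folds were 2.97, 2.23 and 2.28 in diestrus controls, 2.70, 2.46 and 2.41 in proestrus cocaine libraries and 2.80, 3.17 and 3.18 in male controls.

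Over all 17 libraries, no region of the set differed in its calls between the 8 cocaine and 9 control libraries after adjustment. The two-sided Fisher's exact test was run on 64304 regions called in 4 to 13 libraries, 515 of them in the set, with p-values adjusted by Benjamini-Hochberg. Past an adjusted 0.05, 0 regions of the set were called more often and 0 less often after cocaine (0% genome-wide). Without adjustment, 8 were called more often (3.81% genome-wide) and 42 less often (9.23%). The smallest p in the set was 0.00226 by Fisher's exact test (adjusted 0.216). It belonged to the Sv2b region above, called in 0 cocaine and 7 control libraries, and to a Syt3 intron region (chr7:44398503-44399702), called in 2 cocaine and 9 control libraries. Next, with an exact p of 0.00337, came a Syt2 intron region (chr1:134711053-134711656; 1 cocaine and 8 control libraries). In the other direction, a Syt10 intron region (chr15:89816097-89816874) and a Pclo intron region (chr5:14796962-14798076) were each called in 7 cocaine and 1 control libraries, with the same p. The Pclo region had folds of 2.73 to 3.27 in the female cocaine libraries.

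The sexes and stages were compared in the same way, counting regions called in every library of 1 group and none of the other. Proestrus and diestrus controls were separated at 55 regions of the set (4.75% genome-wide), male and diestrus controls at 84 (12.1%), and male and proestrus controls at 75 (11.9%). After cocaine, proestrus and diestrus were separated at 8 (0.762%), males and diestrus at 71 (6.77%), and males and proestrus at 92 (7.56%). Of the 84 regions between male and diestrus controls, 39 were called in males (3.70% of the set, 9.05% genome-wide) and 45 in diestrus (4.27% and 3.02%). Of the 55 between the female controls, 45 were called in diestrus (4.27% and 3.96%) and 10 in proestrus (0.950% and 0.792%). These comparisons share libraries with each other and with those of cocaine. Without proestrus cocaine library 2, the stages were separated at 47 regions after cocaine.

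Summit height was compared in the regions called in all 17 libraries, where each library has a value. These were 224 regions in 38 of the 40 genes, of 36847 genome-wide. The highest fold in each region was quantile normalized over libraries, and log2 values were tested with limma in 1 fit over all 17 libraries, adjusting p-values by Benjamini-Hochberg over the 36847 regions, with a threshold of 0.05. Values below are normalized folds, and differences are log2, cocaine minus control, ± SE. In diestrus, 6 regions of the set rose (6.65% genome-wide) and 9 fell (6.36%). In proestrus 2 rose (2.57%) and 4 fell (2.44%). In males 6 rose (3.54%) and 10 fell (5.06%). For the mean of these 3 differences, 19 rose (7.32%) and 19 fell (7.70%). The median log2 difference of the 224 regions was -0.04 in diestrus, 0.00 in proestrus, 0.07 in males and 0.00 for the mean, and that of all regions lay between 0.00 and 0.01. Leaving out diestrus cocaine library 1 raised the count in diestrus from 15 to 40. Genome-wide, 5473 then rose and 5445 fell, in place of 2449 and 2343. Without diestrus cocaine library 3 the count was 2 (231 rose and 247 fell genome-wide). Leaving out proestrus cocaine library 2 raised the count in proestrus from 6 to 23. Genome-wide, 2140 then rose and 1922 fell, in place of 948 and 899. Without proestrus control library 2 the count was 2 (223 rose and 160 fell genome-wide). In males, 5 passed in place of 16 when either cocaine library was left out, a fit in which the lone remaining library is assumed to vary like those of the other groups.

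By gene, all 4 regions of Bsn that passed for the mean difference fell, as did all 3 of Sv2b, whereas all 3 of Unc13c and both of Pclo rose. Rims1 had 3 that rose and 1 that fell, Syt1 4 that rose and 1 that fell, and Erc2 1 that rose and 3 that fell. The sizes were moderate, from 0.19 to 0.78 for those that rose and from -0.29 to -0.55 for those that fell.

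Unc13c, which codes for Munc13-3, had the largest mean rise of the set, in an intron region in its 5′ part (chr9:73934652-73935647). The normalized folds were 6.21, 4.03 and 3.26 in diestrus controls and 5.86, 5.59 and 5.33 after cocaine. In proestrus they were 3.43, 2.92 and 2.79 in controls and 6.43, 5.13 and 6.33 after cocaine, and in males 2.61, 3.18 and 2.77 and then 6.25 and 5.23. The groups did not overlap in proestrus or in males and overlapped in diestrus, where 1 control library was high. The mean difference was 0.78 ± 0.11 (limma, adjusted p = 4.2e-05), with 0.97 ± 0.19 in proestrus (adjusted p = 0.00508) and 1.01 ± 0.21 in males (adjusted p = 0.00197). In diestrus it was 0.36 ± 0.19 (adjusted p = 0.18). Without male cocaine library 1, the adjusted p in males was 0.0682. A second Unc13c intron region (chr9:73740674-73742592) rose in males, from 8.80, 8.10 and 8.75 to 12.9 and 13.3 (0.62 ± 0.15, limma adjusted p = 0.00948), with 0.63 and 0.59 and adjusted p-values up to 0.108 when either male cocaine library was left out.

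Syt3 codes for a synaptotagmin of high calcium affinity, and its promoter (chr7:44382108-44386358, which also holds the start of 1700008O03Rik) fell in both female stages. The normalized folds were 11.3, 13.8 and 15.1 in diestrus controls and 10.8, 7.36 and 5.33 after cocaine. In proestrus they were 11.5, 11.5 and 12.8 in controls and 6.67, 8.39 and 5.04 after cocaine. In males they were 8.69, 9.04 and 9.57 in controls and 10.7 and 11.9 after cocaine. The groups did not overlap in any of the 3 pairs. The difference was -0.83 ± 0.18 in diestrus (limma, adjusted p = 0.00578), -0.86 ± 0.18 in proestrus (adjusted p = 0.00871) and 0.31 ± 0.21 in males (adjusted p = 0.362). Without diestrus cocaine library 3, the diestrus difference was -0.58 (adjusted p = 0.0889), and without proestrus cocaine library 4, the proestrus difference was -0.68 (adjusted p = 0.0656).

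Other calcium sensors moved at introns. In Syt1, an intron region (chr10:108928239-108933686) had folds of 10.4, 12 and 11.3 in diestrus controls and 14.7, 13.3 and 14.5 after cocaine. In proestrus it had 10.1, 9.56 and 9.80 and then 14.9, 11.4 and 14.2, and in males 10.0, 8.92 and 7.76 and then 10.5 and 13. Cocaine libraries were above the controls in each pair, and the mean difference was 0.39 ± 0.08 (limma, adjusted p = 0.00195). A second region (chr10:108549128-108566127), with an AP-1 motif within 100 bp of its summit, rose by 0.38 ± 0.09 on average (adjusted p = 0.00365). Another Syt1 region (chr10:108709774-108712097) fell in males, from 5.79, 5.04 and 5.40 to 2.83 and 2.87 (-0.92 ± 0.20, adjusted p = 0.00263).

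Syt7 had an intron region that reaches the start of Lrrc10b (chr19:10447651-10463345) and fell in diestrus, from 21.1, 23 and 24.7 to 16.8, 14.3 and 11.3 (-0.71 ± 0.13, limma adjusted p = 0.00223). Syt2 fell in proestrus at its internal promoter (chr1:134708311-134710579), from 5.86, 6.78 and 6.87 to 4.41, 3.73 and 4.32 (-0.65 ± 0.16, adjusted p = 0.0213), and at an intron (chr1:134718613-134721457; -0.53 ± 0.16, adjusted p = 0.0431). With GC content taken out in bins, these Syt2 regions had adjusted p-values of 0.0823 and 0.108. The call of the promoter was also lost without proestrus control library 2 or 3 or proestrus cocaine library 1 or 4 (-0.61 to -0.69, adjusted p up to 0.0825), and that of the intron in 9 of 17 single omissions (-0.41 to -0.55, adjusted p up to 0.199). Doc2b, a high-affinity sensor of spontaneous release, had a promoter (chr11:75793565-75797228) that rose in males, from 7.01, 5.15 and 6.04 to 10.8 and 12.2 (0.93 ± 0.19, adjusted p = 0.00197). Without male cocaine library 2 the adjusted p for Doc2b was 0.0665.

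Among the vesicle proteins, Rab3c had regions that moved in opposite directions. The region at chr13:110217924-110219683, with an AP-1 motif within 100 bp of its summit, rose from 7.20, 6.90 and 7.75 to 9.87, 9.93 and 11.8 in diestrus and from 7.98, 8.12 and 7.86 to 11.6, 10.1 and 13.4 in proestrus. Male values were 6.11, 8.10 and 5.59 in controls and 7.67 and 7.21 after cocaine, and they overlapped. The differences were 0.53 ± 0.15 in diestrus (limma, adjusted p = 0.0222) and 0.54 ± 0.15 in proestrus (adjusted p = 0.0355, or 0.115 with GC content taken out). The call in diestrus was lost without diestrus control library 2 or 3 or diestrus cocaine library 2 or 3 (0.44 to 0.57, adjusted p up to 0.156). That in proestrus was lost without any 1 of the 3 proestrus control libraries or proestrus cocaine library 1 or 4 (0.44 to 0.55, adjusted p up to 0.165). The repeat-rich Rab3c region (chr13:110109390-110110381, 62.9% soft-masked and 25.4% GC) fell in diestrus, from 10.2, 6.61 and 9.56 to 4.24, 3.75 and 3.32 (-1.20 ± 0.21, adjusted p = 0.00162).

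Sv2b and Syn2 held the regions of smallest p among those that fell in males. A Sv2b intron region (chr7:75209008-75209883) went from 7.85, 7.08 and 6.79 in male controls to 2.99 and 3.06 after cocaine (-1.26 ± 0.20, limma adjusted p = 0.000111), and the 12 female libraries held 2.41 to 4.46. Downstream of Syn2, the gene of synapsin II, a region (chr6:115283647-115287378) went from 7.44, 7.34 and 7.31 to 4.0 and 3.96 (-0.89 ± 0.18, adjusted p = 0.00129), and the females held 3.26 to 4.31. In both cases the male control libraries were high and all other libraries lay together. A Syn2 intron region (chr6:115188739-115190793) had the opposite form, with 3.26, 3.73 and 2.77 in male controls, 5.23 and 5.83 after cocaine (0.77 ± 0.20, adjusted p = 0.0114) and 4.69 to 8.85 in females. Its call was lost without male control library 3 (0.66), male cocaine library 1 (0.86) or male cocaine library 2 (0.70), with adjusted p-values up to 0.14.

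Active zone genes moved in both directions. A Bsn intron region with an AP-1 motif (chr9:108125441-108131755) had folds of 9.80, 7.36 and 6.67 in diestrus controls and 8.53, 4.73 and 4.34 after cocaine. In proestrus it had 5.73, 7.24 and 6.26 and then 5.02, 5.02 and 4.13, and in males 10.7, 6.95 and 9.48 and then 4.94 and 5.83, for a mean difference of -0.55 ± 0.12 (limma, adjusted p = 0.00295). Groups overlapped in diestrus only. Another Bsn intron region (chr9:108179452-108181441) fell in diestrus (-0.92 ± 0.24, adjusted p = 0.0141), where diestrus cocaine library 1 (8.53) overlapped the controls (10.1, 7.86 and 7.22) and libraries 2 and 3 (3.32 and 3.00) did not. Without library 3 this Bsn difference was -0.64 (adjusted p = 0.166), and the call was also lost without library 2 (-0.71) or diestrus control library 1 (-0.78).

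The Rims1 promoter (chr1:22802520-22807641) rose in diestrus, from 8.20, 9.19 and 6.10 to 10.8, 11.7 and 10.8 (0.52 ± 0.16, limma adjusted p = 0.0306), and an internal Rims2 promoter (chr15:39658998-39661636) rose there from 4.31, 4.63 and 4.03 to 5.23, 7.46 and 6.45 (0.55 ± 0.17, adjusted p = 0.0335). Without diestrus control library 3 the Rims1 difference was 0.35 (adjusted p = 0.215), and its call was also lost without diestrus cocaine library 2 (0.48) or 3 (0.54). That of Rims2 was lost without any of these 6 libraries but diestrus cocaine library 1 (0.43 to 0.60, adjusted p up to 0.193). A Rims1 intron region (chr1:22762882-22765287) fell in males, from 8.05, 10.7 and 8.43 to 4.69 and 5.51 (-0.82 ± 0.18, adjusted p = 0.00348, or 0.0963 without male cocaine library 1). Erc2 fell at an internal promoter (chr14:27796997-27799705) by 0.46 ± 0.10 on average (adjusted p = 0.00282), with 12.1, 15.3 and 10.7 in male controls and 7.46 and 6.92 after cocaine, and the adjusted p was 0.0867 without the male libraries. In proestrus Erc2 fell at an intron (chr14:28163843-28166190), from 9.24, 7.75 and 8.99 to 5.12, 6.89 and 5.85 (-0.55 ± 0.16, adjusted p = 0.0385), a call lost without any 1 of the control libraries or cocaine library 1 or 4 (-0.45 to -0.62, adjusted p up to 0.169).

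**Figure D4:**
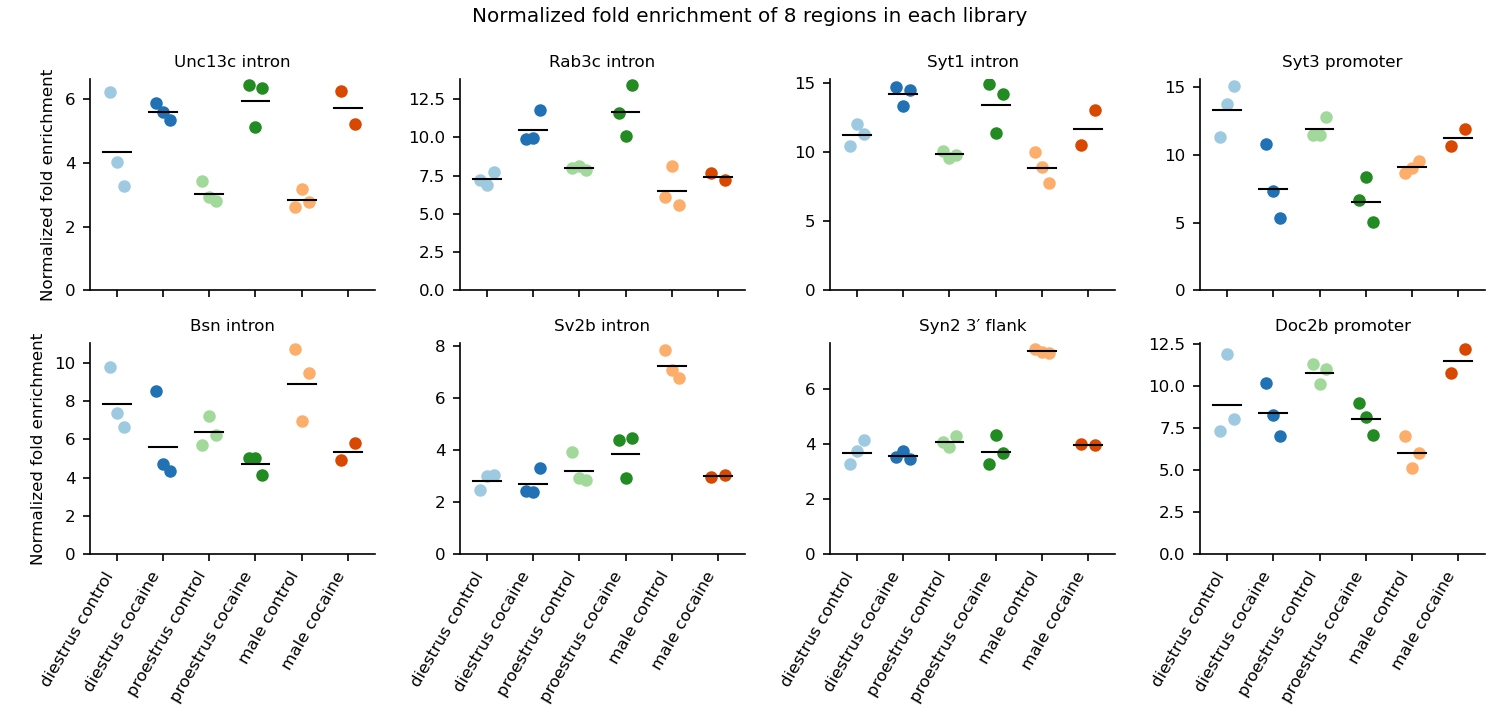
Normalized fold enrichment (vertical axis, from 0) of 8 regions in each library. Points are libraries and bars are geometric means of a group. The Unc13c region rose in proestrus (0.97 on the log2 scale) and in males (1.01), the Syt3 promoter fell in both female stages (-0.83 and -0.86), and the Sv2b and Syn2 regions are high in the 3 male control libraries alone.

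Differences between the sexes in the response were tested as the male difference minus the mean female difference. This was higher in 23 regions of the set (9.81% genome-wide) and lower in 11 (9.90%). Of the 56 promoter regions tested it was higher in 13 and lower in 2, where 13.1% and 9.42% of all promoter regions were. The 4 lower regions of smallest p had -1.35 ± 0.24 in the Sv2b intron (limma, adjusted p = 0.000374), -0.89 ± 0.18 in a region at the 3′ end of Snap25 (chr2:136781093-136792190; adjusted p = 0.00193), -0.80 ± 0.21 downstream of Syn2 (adjusted p = 0.00851) and -0.82 ± 0.23 in the Syt1 intron that fell in males (adjusted p = 0.0139). Most of the Snap25 region lies past the end of the gene, at 136782428. The 4 higher regions of smallest p had 1.18 ± 0.23 at the Doc2b promoter (adjusted p = 0.000987), 1.15 ± 0.24 at the Syt3 promoter (adjusted p = 0.00225), 0.89 ± 0.18 in the second Unc13c intron (adjusted p = 0.00171) and 0.90 ± 0.22 at the Syt2 internal promoter (adjusted p = 0.00541). When either male cocaine library was left out, 11 regions passed in all in place of 34. The Syt1 call was then lost (-0.82 and -0.84, adjusted p up to 0.0671), as was that of Syn2 without library 2 (adjusted p = 0.0521). With GC content taken out in bins, Syt1 had an adjusted p of 0.063 by limma.

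The male control libraries enter both that difference and the comparison of the sexes without cocaine, which therefore are not independent. In controls, males were higher than the mean of both female stages in 11 regions of the set (13.1% genome-wide) and lower in 30 (12.6%). Males were higher by 1.26 ± 0.15 in the Sv2b intron (limma, adjusted p = 5.03e-07), by 0.92 ± 0.14 downstream of Syn2 (adjusted p = 9.86e-06), by 0.68 ± 0.12 in the region at the 3′ end of Snap25 (adjusted p = 0.000147) and by 0.52 ± 0.12 at the Stxbp5 promoter (chr10:9897596-9902941; adjusted p = 0.00175). For Snap25, the target membrane SNARE, the normalized folds were 16.6, 18.4 and 16.8 in male controls, 8.89 to 12.3 in female controls, and 11.2 and 11.9 in males after cocaine. Males differed by -0.98 ± 0.15 in the Syn2 intron (adjusted p = 2.14e-05), by -0.78 ± 0.13 at an internal promoter of Nsf, the ATPase of SNARE disassembly (chr11:103934720-103939386; adjusted p = 6.3e-05), by -0.72 ± 0.12 in the second Unc13c intron (adjusted p = 4.67e-05) and by -0.66 ± 0.12 in the Syt7 region (adjusted p = 0.000119).

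Stages were harder to tell apart by summit height. Proestrus and diestrus controls differed in 0 regions of the set by limma (0.692% genome-wide). At an unadjusted p under 0.05 there were 22 (9.82% of the set, 15.4% genome-wide). The cocaine difference differed between diestrus and proestrus in 0 regions (0.00543% genome-wide), with 13 at an unadjusted p under 0.05 (5.8% of the set, 7.03% genome-wide). Without diestrus cocaine library 1, each of the counts past the adjusted threshold was 2.

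GC content moved with the female differences. Regions of the set that fell had a higher median GC content than those that rose, with 52.7% and 40.3% in diestrus and 54.0% and 41.5% in proestrus, whereas in males those that fell had 40.9% and those that rose 43.4%. Over the 224 regions, which share the same libraries, the log2 difference and GC content had a Pearson r of -0.46 in proestrus (Spearman rho -0.44), -0.19 in diestrus (rho -0.21) and 0.13 in males (rho 0.07). Over all 36847 regions r was -0.36, -0.18 and 0.14. Calls showed a like order in proestrus, with a median GC content of 34.5% in the 20 gained regions and 44.6% in the 19 lost. With GC content taken out in bins, 19 regions passed in diestrus, 4 in proestrus and 24 in males, in place of 15, 6 and 16. The part of GC content in each difference was not tested beyond this.

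**Figure D5:**
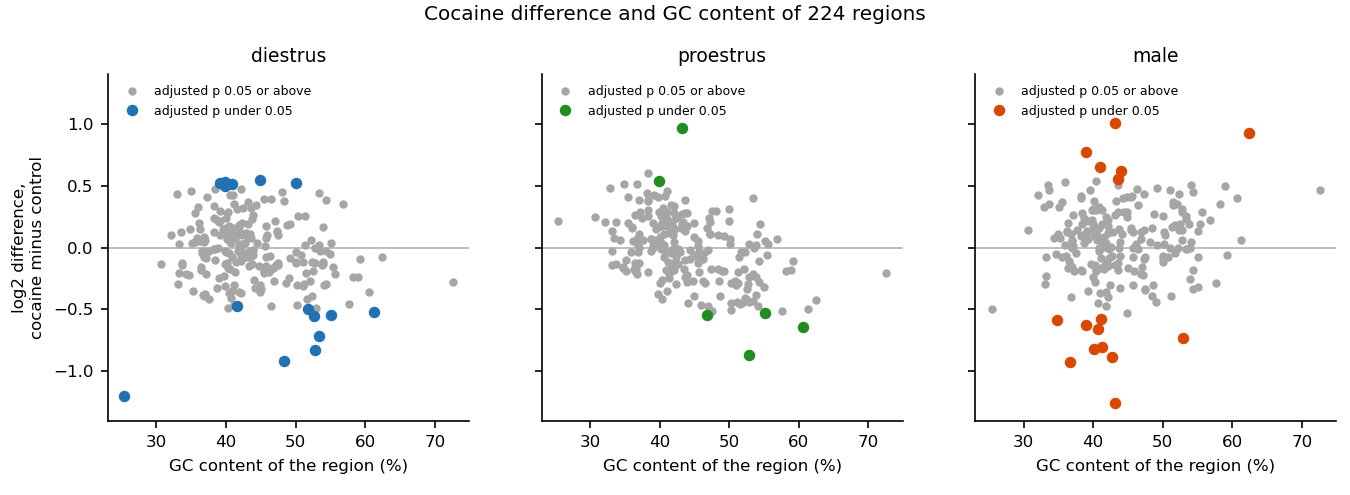
Log2 difference between cocaine and control (vertical axis) against the GC content of the region (horizontal axis, %) for the 224 regions called in all libraries, by sex and stage. Coloured points passed an adjusted p of 0.05 by limma. In proestrus the points slope down, with r of -0.46, and in males they do not, with r of 0.13.

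Beside the 40 genes, 44 of 45 other genes of the vesicle cycle had regions, 502 in all, and 37 of them had a promoter called in all 17 libraries. The promoters of the glutamate transporter Slc17a6, the monoamine transporter Slc18a2 and the complexin Cplx4 were called in 0 libraries, that of Syt8 in 7, of Cadps2 in 11, of Syt17 in 12 and of Doc2g in 15. Of their 114 regions called in all libraries, 6 rose (6.65% genome-wide) and 11 fell (6.36%) in diestrus by limma, and 1 rose (2.57%) and 9 fell (2.44%) in proestrus. In males 3 rose (3.54%) and 6 fell (5.06%), and on average 5 rose (7.32%) and 14 fell (7.70%).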

How the data were processed

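Peaks of 17 ATAC-seq libraries were analysed, grouped by the labels. The authors aligned reads to mm10 with BWA, and MACS2 peak calling was run library by library. Versions were not given in the sources used here. Each deposited peak carried a fold enrichment of its summit over background (a ratio), −log10 p-values and −log10 q-values, and a score that the authors' caller made from the q-value (10 times its −log10, cut to a whole number). No read counts were analysed here, so that the DESeq2 test of the authors on featureCounts output was not run. Total reads were not used, and the background pileup recovered from the deposited fold values stood in for depth. A missing call means not called at this depth. Shares carry counting error only where no SD is given.

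Peaks on chromosomes 1 to 19 and X that overlapped by 1 bp or more were merged over libraries (281189 regions), and the 147420 called in at least 2 libraries of 1 group were kept (52.4%). No blacklist was used. Gene models were GENCODE M21 and the sequence GRCm38, the build of the files. Libraries were compared by complete separation of calls, by Fisher's exact test (scipy 1.17.1) and by limma 3.58.1 in R 4.3.3 (group means, eBayes with trend) on quantile-normalized log2 of the highest fold, and each was tested on simulated data. Python 3.11.15 did the rest. Regions named were those past a test's threshold, up to 4 of smallest p per contrast and direction, the genes with the most gained or lost regions (up to 4), regions gained in both female stages, and promoters not called in all libraries. Regions beyond this rule, including the lists of smallest Fisher p and of opposite calls and the genes with separated counts, were named after their values were seen. The genes, lists and tests were chosen with earlier results of these data known. Alternatives were peaks with a −log10 q of at least 5, the same number of strongest peaks per library, peaks covering at least 50% of a region, all merged regions, no gene extension, promoters within 3 kb, median centring, 20 GC bins, a replicate block and leaving out each library.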

Additional observations from a re-analysis of the deposited data

Results flagged for a closer look

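Some regions of the vesicle release genes were singled out because the cocaine difference in males differed from the mean difference in females by limma, in log2 of normalized fold. It was lower in males in a Sv2b intron (-1.35), at the 3′ end of Snap25 (-0.89), downstream of Syn2 (-0.80) and in a Syt1 intron (-0.82). It was higher in males at the Doc2b promoter (1.18), at the Syt3 promoter (1.15), at an internal Syt2 promoter (0.90) and in a Unc13c intron (0.89). The Syt1 call was lost with GC bins (adjusted p = 0.063 by limma) and without either male cocaine library (adjusted p up to 0.0671), and that downstream of Syn2 without male cocaine library 2 (adjusted p = 0.0521). In all, 23 regions of the set had a higher (9.81% genome-wide) and 11 a lower (9.90%) difference in males, and 11 in either direction passed when either male cocaine library was left out.

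Besides, 3 regions were gained in 1 sex or stage and lost in another, namely 2 in Rims1 introns, gained in proestrus and lost in males, and 1 in a Pclo intron, lost in diestrus and males and gained in proestrus. That opposition was not tested.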

How the results depend on the processing

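With the same number of strongest peaks from each library (574 regions of the set), the diestrus comparison had 1 gained (1.57% genome-wide) and 8 lost regions (1.2%). That in proestrus had 8 (2.42%) and 8 (1.31%), and that in males 19 (4.2%) and 37 (9.52%). Regions that separated groups were 22 (proestrus and diestrus controls), 48 (male and diestrus controls), 37 (male and proestrus controls), 3, 29 and 33 (the same pairs after cocaine, with proestrus and diestrus first). With a −log10 q of at least 5 (591 regions of the set), 7 were lost in diestrus (0.995% genome-wide). In proestrus 10 were gained (2.31%) and 7 lost (0.999%), and in males 2 were gained (0.565%). At this setting 25, 53, 3, 36 and 49 separated proestrus and diestrus controls, male and diestrus controls, and the 3 pairs after cocaine. With peaks covering at least 50% of a region (677 regions of the set), 5 were gained in diestrus (1.98% genome-wide), 10 in proestrus (3.18%) and 2 in males (1.45%). There 5 separated the stages after cocaine. For separated regions, genome-wide shares were not counted at these settings. With promoters within 3 kb, 3 of 132 promoter regions were lost in proestrus and 15 in males. The cause of these moves was not tested. Keeping all merged regions or dropping the gene extension moved no count by over 1.5 times. Keeping all merged regions could not change the gained, lost and separated counts, since each such region is called in at least 2 libraries of 1 group.

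Leaving out each library in turn, gained regions ranged from 3 to 18 in diestrus (1.51% to 2.55% genome-wide), 28 to 68 in proestrus (3.12% to 6.32%) and 9 to 19 in males (1.82% to 2.58%). Lost regions ranged from 19 to 87 (1.38% to 7.24%), 21 to 48 (2.21% to 3.69%) and 155 to 204 (18.8% to 23.8%). Separated regions ranged from 75 to 100, 104 to 125 and 98 to 115 for the control pairs and from 19 to 47, 96 to 127 and 123 to 187 after cocaine, since fewer libraries must differ. Regions past limma's threshold ranged from 2 to 40 in diestrus, 2 to 23 in proestrus, 5 to 22 in males, 19 to 53 for the mean, 11 to 46 for the sex difference of the response, 25 to 48 for male against female controls, and 0 to 2 for both stage comparisons. Leaving out a male cocaine library leaves 1 in its group, whose spread is then taken from the other groups.

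The replicate block left 1 region past the threshold in proestrus in place of 6, and 16, 14 and 34 in diestrus, in males and for the mean. Proestrus cocaine library 4 was the only library with its number, so that the block also took it out of the proestrus difference. Leaving that library out without a block gave 2 regions in proestrus. Same-numbered libraries of different groups did not deviate together (36 pairs, r from -0.245 to 0.439, median -0.00584), and 8 of 16 libraries correlated best with their own number, so that the numbers were not taken to pair the samples. Of the differences named, 42 kept their call and 4 lost it with GC bins, 45 and 1 with median centring, and 41 and 5 with the block. Over all single omissions, 727 were kept and 55 lost, and no named difference changed sign. For a difference within 1 sex or stage, most of these omissions took out a library of another sex or stage. Most of the lost calls came where a library of the groups compared was left out, so that the pooled counts overstate how stable such calls were. Chosen after the data were seen, the mean over females alone passed in 45 regions in place of 38.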
